A study of Mus musculus with 47 samples.

Results

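A set of 10 transcripts that mark naive pluripotency was followed through the RNA libraries of a mouse series on thymine DNA glycosylase (Tdg): Klf2, Klf4, Klf5, Esrrb, Tfcp2l1, Tbx3, Zfp42, Prdm14, Nr0b1 and Dppa3. They were chosen by symbol, and all 10 were found among the 24507 genes of the tables for 48 h, 96 h and day 11 and among the 26182 genes of the tables for cell-cycle phases. The cells were E14Tg2A, a mouse embryonic stem cell (ESC) line, transfected with either a control siRNA, siC, or with siTdg, which targets Tdg. Per the labels, ESCs grew without serum in N2B27 with LIF, the MEK inhibitor PD0325901 and the GSK3 inhibitor CHIR99021. There were 20 libraries in 10 groups of 2: ESCs taken whole at 48 h or 96 h, day 11 embryoid bodies (EBs, clusters formed by differentiating ESCs), and ESCs labelled G1 or G2M, each with siC and with siTdg. All cells were of 1 line, the EBs derived from the transfected cells, and the labels do not give the EB medium, how phases were separated or how long after transfection those cells were taken.

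Naive pluripotency is the state of the early epiblast, which ESCs keep when ERK signalling is blocked, GSK3 is inhibited and LIF activates STAT3. In mouse ESCs Klf4 and Klf5 lie downstream of LIF and STAT3, Tfcp2l1 is a STAT3 target, and Esrrb and Tfcp2l1 respond to GSK3 inhibition through relief of repression by Tcf7l1. The set falls quickly silent when cells leave that state. Klf2, Klf4 and Klf5 are zinc finger factors of the Krüppel-like family, Esrrb and Nr0b1 are orphan nuclear receptors, Tfcp2l1 is a grainyhead-family factor, and Tbx3 is a T-box factor. Zfp42 (Rex1) is a zinc finger protein used as a naive marker and Prdm14 a PR-domain factor that represses FGF signalling and DNA methylation. Dppa3 (Stella) is a chromatin protein that guards DNA methylation in the egg rather than a classical DNA-binding factor, so the name transcription factor fits it least.

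RefSeq promoter sequences (GRCm38.p6) were at hand for 6 of the 10 genes: Klf2, Klf4, Esrrb, Tfcp2l1, Zfp42 and Nr0b1, with 2 starts for Esrrb. The 250 bases before the start are printed for the 4 of these whose level in EBs was lowest relative to ESCs, since these transcripts differed most between those states. Capitals mark matches, on either strand, to any of 6 motifs: the octamer ATTTGCAT, the nuclear receptor half-site AGGTCA, the longer TCAAGGTCA that contains it, the Krüppel-like element CCNCNCCC, the STAT element TTCNNNGAA and the TATA element TATAAA. Matches of 1 motif that overlap run together. Each sequence reads 5′ to 3′ on the strand of the gene.
Zfp42, chr8:43307010-43307259, minus strand: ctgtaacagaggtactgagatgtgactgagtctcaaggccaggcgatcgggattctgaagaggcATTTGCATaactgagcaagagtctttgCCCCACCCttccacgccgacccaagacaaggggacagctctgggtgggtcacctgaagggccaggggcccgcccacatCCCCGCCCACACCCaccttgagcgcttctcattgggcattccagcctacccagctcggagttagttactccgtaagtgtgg
Esrrb, first start, chr12:86360867-86361116, plus strand: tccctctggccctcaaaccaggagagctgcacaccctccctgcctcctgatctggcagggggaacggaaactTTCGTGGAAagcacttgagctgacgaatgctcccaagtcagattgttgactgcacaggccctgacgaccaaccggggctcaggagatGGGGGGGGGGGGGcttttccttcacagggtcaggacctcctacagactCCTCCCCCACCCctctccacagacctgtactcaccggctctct
Esrrb, other start, chr12:86421394-86421643, plus strand: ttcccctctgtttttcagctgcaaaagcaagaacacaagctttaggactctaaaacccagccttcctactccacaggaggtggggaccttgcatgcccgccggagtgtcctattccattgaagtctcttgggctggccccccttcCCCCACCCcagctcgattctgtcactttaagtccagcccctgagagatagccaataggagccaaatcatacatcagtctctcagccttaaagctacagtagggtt
Tfcp2l1, chr1:118627695-118627944, plus strand: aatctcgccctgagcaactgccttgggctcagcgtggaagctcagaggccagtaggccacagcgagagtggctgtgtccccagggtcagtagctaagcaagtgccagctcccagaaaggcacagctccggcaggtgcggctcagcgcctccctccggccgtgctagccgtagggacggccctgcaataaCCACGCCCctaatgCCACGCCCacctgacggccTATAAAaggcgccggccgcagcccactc
Nr0b1, chrX:86191525-86191774, plus strand: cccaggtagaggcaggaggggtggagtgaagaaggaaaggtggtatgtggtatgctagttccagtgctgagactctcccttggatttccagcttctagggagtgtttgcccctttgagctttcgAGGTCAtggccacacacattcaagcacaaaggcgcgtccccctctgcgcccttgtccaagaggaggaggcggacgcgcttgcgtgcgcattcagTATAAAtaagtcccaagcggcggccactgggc

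Zfp42 held the octamer, on its own strand, starting 186 bases before the start of the gene; 1.6% of the 32851 mouse promoters of this length in the table hold it. Nr0b1 held AGGTCA 126 bases before its start (14.0% of promoters) and TATAAA 32 bases before it (12.4%), while Tfcp2l1 held TATAAA 28 bases before its start. The first Esrrb promoter held a TTCNNNGAA match 178 bases before the start, an element found in 7.02% of promoters. CCNCNCCC was in 6 of the 7 promoters, all but that of Nr0b1, and in 45.9% of all promoters; in the first Esrrb promoter part of these matches is a run of G. TCAAGGTCA was in none of the 7 and in 0.387% of all promoters. A match is a description of letters, not of a bound site.

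The libraries met their labels in most respects. The 10 core pluripotency genes, Pou5f1, Sox2 and Nanog among them, summed to between 1587 and 2457 RPKM (the deposited unit, reads scaled by depth and per kb of gene) in the 16 ESC libraries and to between 23.5 and 35.9 RPKM in the 4 EB libraries. Tdg itself was at 46.0 and 43.4 RPKM with siC at 48 h against 7.34 and 13.2 RPKM with siTdg. At 96 h the Tdg levels were 35.8 and 46.0 RPKM with siC against 28.2 and 40.3 RPKM with siTdg, and in EBs 35.1 and 38.5 against 37.3 and 43.7 RPKM: the groups overlapped at 96 h, and in EBs 1 siTdg library lay between the siC libraries. At 96 h each siTdg library was below the siC library of the same number, while in EBs each was above it. The authors' deposited table gave Tdg a log2 change of -0.26 ± 0.10 (SE) at 96 h, with p = 0.00678 and adjusted p = 0.434. In EBs it gave 0.13 ± 0.16. At 96 h and in EBs siTdg is thus the label of a library and not a called loss of Tdg RNA. In the phase libraries Tdg lay between 54.8 and 63.1 RPKM with siC and between 7.53 and 12.3 RPKM with siTdg. The G2M label was met by Top2a, a mitotic topoisomerase, at 61.1 to 78.8 RPKM in the 4 G1 libraries and 227 to 240 RPKM in the 4 G2M libraries. Aurkb read 14.9 to 18.2 RPKM in G1 and 50.5 to 54.0 RPKM in G2M. Ccnb1 was less far apart, at 128 to 175 RPKM in G1 and 261 to 275 RPKM in G2M. Its highest G1 value was in replicate 2 of siTdg. Nothing in the labels ties the 2 replicates to separate cultures; p-values therefore reflect library spread that could be technical.

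In ESCs the order of the 10 transcripts by mean was the same in all 8 groups but for Klf2 and Klf4, with Zfp42 at the top and Dppa3 at the bottom. RPKM is per gene length, so levels of different genes can be set side by side. In siC cells at 48 h Zfp42 was highest at 411 ± 117 RPKM (SD, n = 2 here and for each group mean below), followed by Esrrb at 189 ± 31.6, Tfcp2l1 at 159 ± 21.6 and Klf2 at 105 ± 8.88. Klf4 at 84.2 ± 10.2, Klf5 at 67.1 ± 22.9, Tbx3 at 43.5 ± 7.27 and Nr0b1 at 37.9 ± 7.31 RPKM came next. Prdm14 at 18.5 ± 0.223 and Dppa3 at 7.96 ± 4.17 RPKM closed the order. Neighbours whose libraries overlapped were Esrrb and Tfcp2l1, Klf4 and Klf5, and Tbx3 and Nr0b1; at the other steps the libraries of neighbours did not overlap. Klf2 and Klf4 changed places between 48 h and 96 h, where they were 84.0 ± 2.07 and 87.7 ± 8.87 RPKM in siC cells and did not differ beyond their spread.

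Within a group the replicates were far apart for some of these genes and close for others, and the wide gaps had the same sign in siC and siTdg cells. Zfp42 read 367 and 728 RPKM in replicates 1 and 2 of siC at 96 h, and 370 and 769 RPKM in those of siTdg. Tfcp2l1 went the opposite way, at 163 and 76.7 RPKM with siC and 155 and 65.3 RPKM with siTdg. So replicate 2 was high in Zfp42 and low in Tfcp2l1 under both siRNAs, and the siRNA groups overlapped. Esrrb, with 190 and 116 RPKM in siC and 184 and 98.0 RPKM in siTdg at 96 h, followed Tfcp2l1. Prdm14 hardly differed, at 18.9 and 16.6 RPKM with siC and 17.0 and 15.8 RPKM with siTdg. For comparison, 8.35% of all genes tested differed between the siC replicates at 96 h by more than 1 on the log2(RPKM + 0.5) scale, as Tfcp2l1 did with 1.09.

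**Figure D1:**
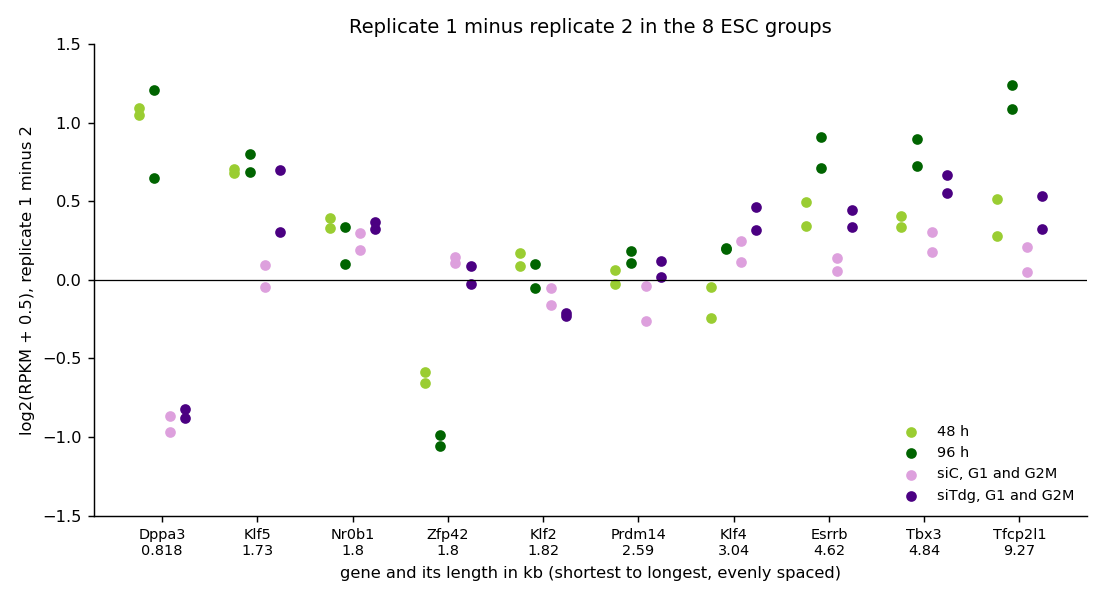
Each point is the log2(RPKM + 0.5) of replicate 1 minus that of replicate 2 in 1 of the 8 ESC groups, for the 10 genes placed on the x axis from the shortest to the longest; colours mark the deposited table. Tfcp2l1, Tbx3 and Esrrb, the longest genes, lie above 0 in all 8 groups, Zfp42 lies far below 0 at 48 h and 96 h only, and Dppa3 is above 0 at 48 h and 96 h and below 0 in the phase libraries.

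This gap moved with gene length across all genes. The Spearman correlation between the replicate difference and gene length was 0.54 over 12162 genes for siC at 96 h and 0.538 for siTdg, 0.139 and 0.31 over 12217 genes at 48 h, and 0.547 over 12533 genes for siTdg in G1; genes within a library are not independent, and no test was made. The 3 longest of the 10 genes, Tfcp2l1 at 9.27 kb, Tbx3 at 4.84 kb and Esrrb at 4.62 kb, were higher in replicate 1 in all 8 ESC groups. Length did not order the short genes: Klf5 at 1.73 kb was higher in replicate 1 and Zfp42 at 1.80 kb higher in replicate 2 at both 48 h and 96 h. Dppa3, the shortest at 0.818 kb, read 10.9 and 5.01 RPKM in siC at 48 h but 1.17 and 2.55 RPKM in siC at G1. The part of gene length, RNA quality or culture in these gaps was not tested.

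Between siTdg and siC the 10 transcripts did not pass the test in unsorted ESCs at 48 h or at 96 h in the fit without a term for replicate number; for Dppa3 at 48 h the call depended on that term. limma on log2(RPKM + 0.5) with Benjamini-Hochberg adjustment over 12190 genes called 0 of 10 at either time at an adjusted p under 0.05, against 0% of all genes higher and 0% lower, and 0 of the 10 had an unadjusted p under 0.05; limma-voom on the recovered reads called 0 as well. Changes (siTdg minus siC, log2) had a median over the 10 of -0.07 at 48 h and of -0.18 at 96 h. Medians over all genes were -0.01 and 0.00. Of the 10, 4 lay above 0 at 48 h and 1 at 96 h, beside 46.2% and 51.3% of all genes. Leaving out 1 library moved the medians of the 10 between -0.25 and 0.12 at 48 h. At 96 h they moved between -0.45, without replicate 2 of siC at 96 h, and 0.015, without replicate 2 of siTdg at 96 h. Across all genes the siTdg change moved with gene length. The Spearman correlation was -0.14 over 12217 genes at 48 h and -0.287 over 12162 genes at 96 h. Its part in the members' changes was not tested.

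Of the Krüppel-like factors Klf2 was the one whose siTdg libraries were both below both siC libraries at both times. Its siC libraries read 111 and 98.3 RPKM at 48 h against 94.6 and 89.1 RPKM with siTdg, and 82.5 and 85.4 RPKM at 96 h against 76.9 and 71.7 RPKM. The limma change was -0.18 ± 0.15 (SE) at both times, with adjusted p of 1.0 at 48 h and 0.999997 at 96 h. Klf4 overlapped at 48 h, at 77.0 and 91.4 RPKM with siC and 86.9 and 89.9 RPKM with siTdg. At 96 h it read 94.0 and 81.5 RPKM with siC against 80.3 and 70.0 RPKM with siTdg, without overlap. Klf5 overlapped at both times, with 83.3 and 50.9 RPKM in siC and 77.5 and 48.3 RPKM in siTdg at 48 h.

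Nr0b1, the DNA-binding-domain-less receptor also known as Dax1, read 34.9 and 27.5 RPKM in siC at 96 h against 27.2 and 25.3 RPKM in siTdg, so that both siTdg libraries were lower. At 48 h its siTdg libraries, at 45.5 and 36.1 RPKM, overlapped those of siC at 43.1 and 32.8 RPKM. Prdm14 was the 1 gene with both siTdg libraries higher, at 48 h: 19.8 and 18.9 RPKM against 18.4 and 18.7 RPKM. In all, 1 gene was higher and 1 lower in both siTdg libraries at 48 h, and 3 were lower at 96 h (Klf2, Klf4 and Nr0b1). Of all genes, 8.71% were higher and 10.1% lower without overlap at 48 h, while at 96 h 4.56% were higher and 4.46% lower.

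Dppa3 had the lowest levels and the largest siTdg change in unsorted ESCs. It read 10.9 and 5.01 RPKM with siC and 6.67 and 2.86 RPKM with siTdg at 48 h, then 12.4 and 7.76 RPKM with siC and 10.5 and 4.27 RPKM with siTdg at 96 h. Each siTdg library lay below the siC library of the same number, but the groups overlapped, because replicate 2 of siC was below replicate 1 of siTdg. The limma change was -0.69 ± 0.58 at 48 h and -0.51 ± 0.58 at 96 h. These levels rest on 68 to 317 reads per library. Mouse Dppa3 has processed copies elsewhere in the genome, and how reads shared with such copies were counted is not given in the sources used here. The authors' deposited table gave Dppa3 -0.76 ± 0.31 at 48 h, with no adjusted p.

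**Figure D2:**
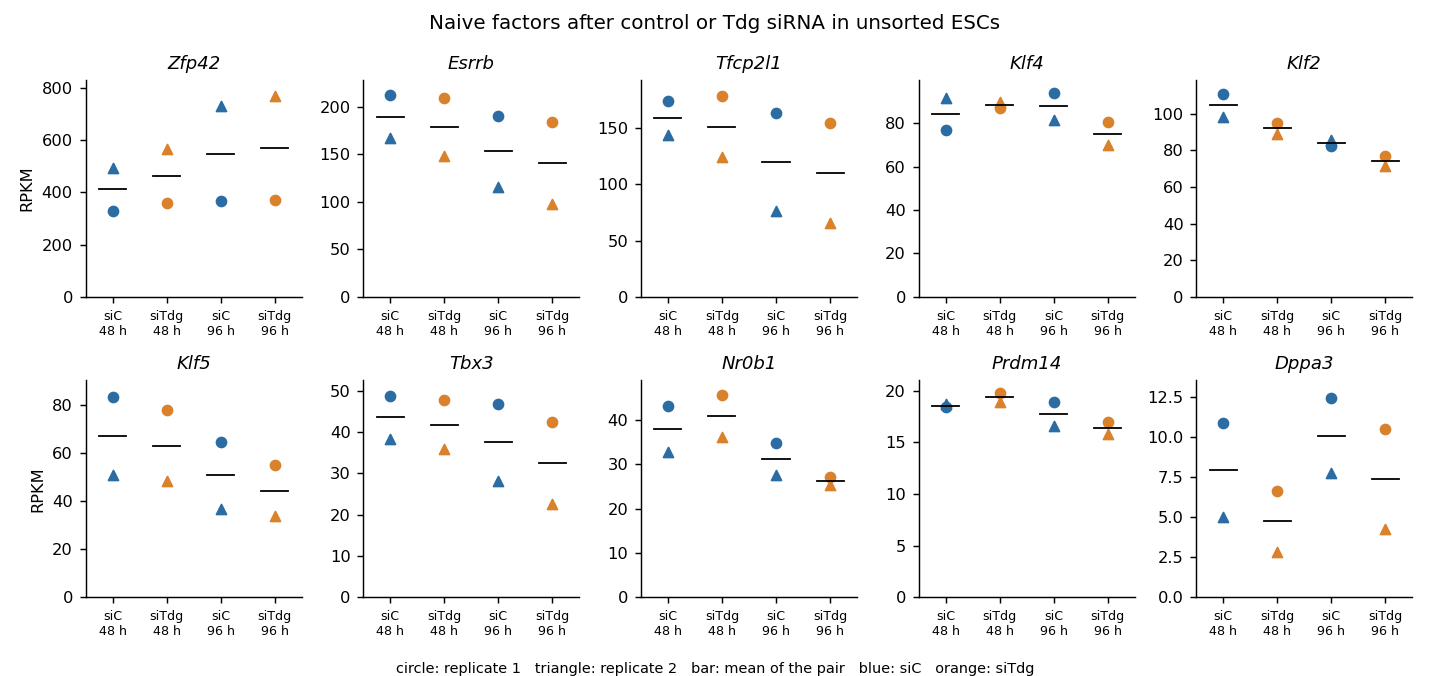
RPKM of the 10 genes in the 8 libraries of unsorted ESCs at 48 h and 96 h, 1 panel per gene with its own y axis from 0; circles are replicate 1, triangles replicate 2, bars the mean of the pair, blue siC and orange siTdg. In Klf2 both siTdg points lie below both siC points at each time, while Zfp42 and Tfcp2l1 split by replicate number rather than by siRNA.

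The authors' deposited table called 0 of the 9 members with an adjusted p at 48 h, where it called 0.119% of 8393 genes higher and 1.23% lower, and 0 of 9 at 96 h, where it called 0.048% of 6246 genes higher and 0.0961% lower. In the authors' deposited table Klf4 changed by -0.22 ± 0.08 at 96 h with an adjusted p of 0.465, and Tbx3 by -0.23 ± 0.09 with 0.58. The change of the siTdg effect from 48 h to 96 h was tested with limma as well: 0 of 10 were called, 0 had an unadjusted p under 0.05, and the median was -0.10. Nr0b1 gave the lowest difference, -0.34 ± 0.31. Tdg itself differed by -2.12 ± 0.31 at 48 h with an adjusted p of 1.0 in limma, so this fit did not call a gene whose libraries were far apart. The authors' deposited table called it at 48 h, at -2.18 ± 0.43 and adjusted p = 0.000176.

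In day 11 EBs all 10 transcripts were far lower than in ESCs with either siRNA, and they split into genes at the limit of counting and genes still present. Levels are given here as reads scaled by gene length and by all gene reads of the library, a common scale computed from the recovered reads so that separately scaled tables can be set side by side, and no test was made. For every member both EB libraries were below all 4 unsorted ESC libraries of the same siRNA, and the EB mean was at least 4-fold lower. Of all genes, 11.1% met that rule with siC and 11.2% with siTdg. These genes passed the filter on low values through their ESC level, so the count is a description. In a bulk sample fewer cells that express a gene and less RNA per cell cannot be told apart.

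Prdm14 and Nr0b1 were near 0 in EBs. Prdm14 averaged 18.2 ± 1.39 (SD, n = 4) in siC ESCs and had 2 reads in 1 siC EB library and 0 in the other; pooled reads gave a ratio of 1431, with an exact 95% interval from 396 to 11821 that covers counting error only. With siTdg it had 1 read, a ratio of 2891 (519 to 114197). Nr0b1 had 9 and 1 reads with siC and 2 and 2 with siTdg, and with siC it was 448-fold lower than in siC ESCs (268-fold without replicate 2). Esrrb had 29 and 7 reads with siC and 47 and 2 with siTdg, and its mean of 172 ± 41.0 (SD, n = 4) in siC ESCs was 1488-fold above that in EBs, and 2472-fold without replicate 1 of the EBs. Esrrb, second in ESCs, was thus among the last in EBs.

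Zfp42 and Tfcp2l1 kept low levels. Zfp42 read 0.442 and 2.44 RPKM in siC EBs and 0.467 and 0.89 RPKM in siTdg EBs, and was 365-fold lower than in siC ESCs on the common scale. That fold was 230 without replicate 1 of the siC EBs and 884 without replicate 2, and with siTdg it was 794. Tfcp2l1 read 0.776 and 0.566 RPKM with siC and 1.13 and 0.453 RPKM with siTdg, 195-fold lower than in siC ESCs. Dppa3 was 29.0-fold lower, from 12 reads in the siC EBs together, and 16.1-fold lower without replicate 1. Zfp42 with both siRNAs, and Dppa3 with siC, were higher in replicate 2 of the EBs, unlike the Krüppel-like factors.

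Klf4, Klf5, Klf2 and Tbx3 also remained measurable, at higher levels in replicate 1 of each pair. Their siC EB libraries overlapped those of Zfp42 in RPKM. Klf4, also a factor of differentiated epithelia, read 10.9 and 1.13 RPKM in siC EBs and 10.8 and 1.07 RPKM in siTdg EBs. Klf2, which endothelial cells use too, read 2.24 and 0.354 RPKM with siC and 3.29 and 0.365 RPKM with siTdg. Replicate 1 was thus high in both genes with either siRNA. Klf5, known from gut and skin epithelium, read 5.13 and 1.80 RPKM with siC and 3.80 and 1.95 RPKM with siTdg. Tbx3, with roles in limb and heart, read 1.74 and 0.62 RPKM with siC and 1.27 and 0.548 RPKM with siTdg. The siC folds against ESCs were 12.0 for Klf4, 15.0 for Klf5, 30.5 for Tbx3 and 61.8 for Klf2. The fold for Klf4 was 6.44 without replicate 2 and 89.5 without replicate 1, and for Klf2 34.3 and 311. For Klf5 these values were 9.35 and 38.2, and for Tbx3 19.0 and 76.5.

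The 2 EB replicates differed in markers of other cell types in the same way under both siRNAs. The summed level of 10 epithelial markers was 599 and 262 RPKM in siC EBs and 765 and 252 RPKM in siTdg EBs. The sum of 10 fibroblast and mesenchyme markers was 5932 and 1728 RPKM with siC and 7671 and 1607 RPKM with siTdg. The sum of 16 endothelial and blood markers went the opposite way, at 67.9 and 382 RPKM with siC and 87.1 and 792 RPKM with siTdg. That sum was carried by embryonic globins such as Hbb-bh1, at 1.58 and 217 RPKM with siC and 4.24 and 413 RPKM with siTdg. Cdh5, the endothelial cadherin, was by contrast at 2.65 and 0.564 RPKM with siC and 2.27 and 0.652 RPKM with siTdg. Of these lists 9 and 7 of 10 epithelial, 10 and 9 of 10 fibroblast and 11 and 8 of 16 endothelial and blood markers reached 1 RPKM in the siC EBs, and none was at 0. Mesoderm and heart markers were also higher in replicate 2, at a sum of 161 and 247 RPKM with siC and 151 and 479 RPKM with siTdg, as were those of visceral endoderm and yolk sac, at 252 and 381 RPKM with siC and 385 and 576 RPKM with siTdg. Sums for trophoblast (78.4 and 35.4 RPKM with siC), neural (19.7 and 2.77 RPKM) and formative and primed markers (293 and 167 RPKM) were higher in replicate 1 under both siRNAs, and that for germ cells was 14.7 and 12.1 RPKM with siC. In the siC EBs 2 and 4 of 9 trophoblast, 2 and 1 of 10 neural and 7 and 8 of 13 primed markers reached 1 RPKM. For visceral endoderm and yolk sac 13 and 11 of 16 did, and for mesoderm and heart 6 of 10 in each replicate. So Klf4, Klf5, Klf2 and Tbx3 were high in the replicate with larger epithelial, fibroblast, trophoblast, neural and primed sums. That replicate had less globin RNA and smaller heart and yolk sac sums. A sum can rest on few genes. For trophoblast, primed, yolk sac, germ cell, and endothelial and blood markers the siC counts at 1 RPKM went against the sums. The EB replicate difference also moved with gene length, with a Spearman correlation of 0.528 over 13300 genes for siC and 0.511 for siTdg. With siC the median log2 difference, replicate 1 minus replicate 2, was -0.83 for genes under 2 kb and 0.51 for genes over 4 kb. The part of gene length or of these cell types in the sums and the remaining levels was not tested.

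**Figure D3:**
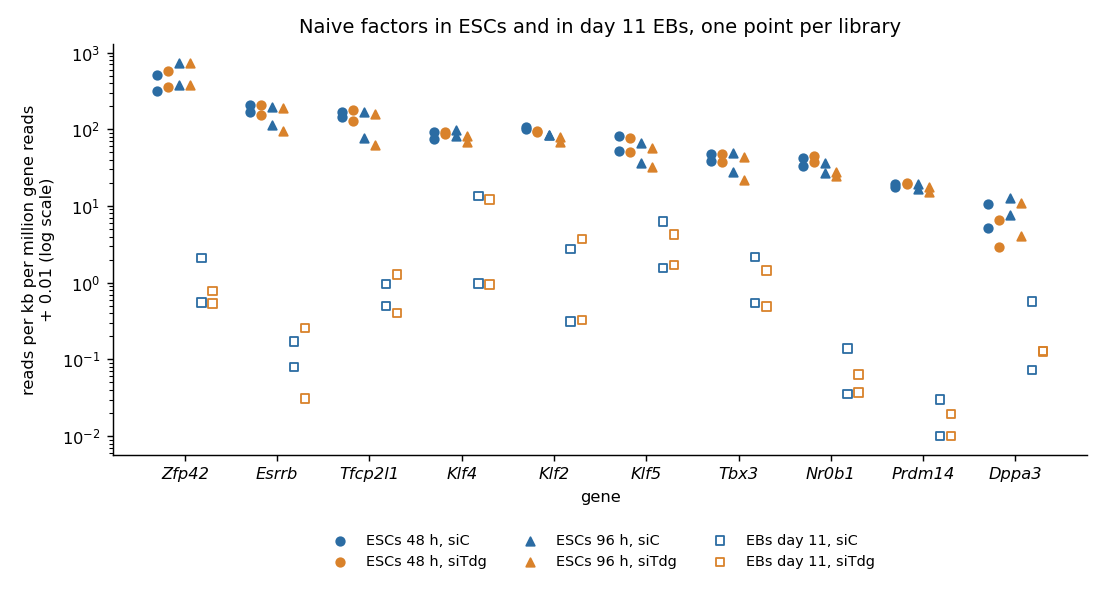
Level of each gene in every unsorted ESC library (filled symbols) and day 11 EB library (open squares), in reads scaled by gene length and library depth, plus 0.01, on a log axis; blue is siC and orange siTdg. All EB points lie below all ESC points of the same gene, and the 2 EB points of a group are farthest apart in Klf4 and Klf2.

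Between siC and siTdg EBs limma tested the 6 members that passed the filter on low values (Klf2, Klf4, Klf5, Tbx3, Tfcp2l1 and Zfp42; the other 4 averaged under 0.5 RPKM) and called 0, beside 0% of 13300 genes in either direction. None of the 6 had an unadjusted p under 0.05, limma-voom called 0, and all 6 overlapped between the siRNAs, where 5.17% of genes were higher and 4.13% lower without overlap. Changes ran from -0.52 ± 0.66 for Zfp42 to 0.24 ± 0.98 for Klf2, with a median of -0.09 that moved between -0.66, without replicate 2 of siC, and 0.39, without replicate 1 of siC. The authors' deposited table called 0 of 6 as well, where 0.0596% of 13424 genes were higher and 0.0149% lower.

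Across the cell cycle 8 of the 10 transcripts were higher on average in G2M than in G1, by a small amount, in siC and in siTdg cells; which of them passed a test depended on the source and on whether replicate number was a term of the fit. Without that term limma called 0 of 10 in either, beside 0.104% of 12462 genes higher and 0.016% lower with siC and 0.144% higher and 0.0241% lower with siTdg. limma-voom also called 0. By contrast, the authors' deposited table called 4 of 9 higher with siC (Klf5, Zfp42, Esrrb and Tbx3), beside 6.23% of 10828 genes, and 2 of 9 with siTdg (Klf5 and Tbx3), beside 4.14% of 11613 genes. The median change over the 10 in limma (G2M minus G1, log2) was 0.20 with siC and 0.24 with siTdg; the latter was 0.10 without replicate 2 of siTdg in G1 and 0.38 without replicate 1. Over all genes the medians were 0.02 and 0.02, and 55.0% and 54.7% of genes lay above 0.

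Klf5 showed the largest phase difference. It read 50.5 and 47.3 RPKM in G1 and 62.2 and 64.4 RPKM in G2M with siC. With siTdg it read 53.1 and 32.5 RPKM in G1 and 69.0 and 55.8 RPKM in G2M. Both G2M libraries were above both G1 libraries in each table, narrowly so with siTdg. The limma change was 0.37 ± 0.22 with siC (adjusted p = 0.776) and 0.57 ± 0.22 with siTdg (adjusted p = 0.459). The authors' deposited table gave 0.37 ± 0.09 with adjusted p = 0.000421 and 0.58 ± 0.13 with adjusted p = 0.00127.

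Zfp42, the most abundant of the set, read 478 and 444 RPKM in G1 and 577 and 523 RPKM in G2M with siC, and 493 and 502 against 609 and 574 RPKM with siTdg. All G2M libraries were above all G1 libraries of the same siRNA. The limma change was 0.25 ± 0.11 with either siRNA, and the authors' deposited table called it with siC (0.26 ± 0.06, adjusted p = 0.000244) but not with siTdg (0.25 ± 0.10, adjusted p = 0.177). Near-identical changes thus fell on different sides of the authors' threshold, and the difference between the siRNAs has its own test, given further on.

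Esrrb read 180 and 163 RPKM in G1 and 199.6 and 192 RPKM in G2M with siC, a separation that its siTdg libraries, 179 and 132 against 203 and 161 RPKM, did not show. In the authors' deposited table it changed by 0.19 ± 0.06 with siC (adjusted p = 0.0147). Tbx3 overlapped in both tables, at 48.2 and 38.9 against 53.5 and 47.2 RPKM with siC. The authors' deposited table gave it 0.22 ± 0.07 with siC (adjusted p = 0.0264) and 0.35 ± 0.11 with siTdg (adjusted p = 0.0343). Here replicate 1 was above replicate 2 in each phase, and G2M was above G1 within each number.

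Prdm14 had the lowest unadjusted p of the set in siC cells. It read 15.7 and 16.2 RPKM in G1 against 17.6 and 21.3 RPKM in G2M with siC, and 18.0 and 16.5 against 21.0 and 20.7 RPKM with siTdg. The limma change was 0.27 ± 0.11 in both, with adjusted p of 0.593 and 0.495. Prdm14 with siC, and Prdm14 and Klf5 with siTdg, were the members with an unadjusted p under 0.05. Klf2 read 60.3 and 67.4 RPKM in G1 against 72.9 and 75.7 RPKM in G2M with siC, and 60.6 and 70.2 against 72.6 and 85.1 RPKM with siTdg. Its limma changes were 0.22 ± 0.12 and 0.27 ± 0.12.

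Nr0b1 and Dppa3 were the 2 genes not higher in G2M. Nr0b1 read 34.9 and 28.3 RPKM in G1 against 31.9 and 28.0 RPKM in G2M with siC, and 35.0 and 27.9 against 31.8 and 24.5 RPKM with siTdg, with overlap in both. Dppa3 was at 1.17 and 2.55 RPKM in G1 and 1.01 and 2.46 RPKM in G2M with siC, from 21 to 74 reads a library. Its limma changes were -0.09 ± 0.49 and -0.22 ± 0.49. The sign for both genes turned when single libraries were left out. Without replicate 2 of siTdg in G1 so did that of Klf4, to -0.03, and of Tfcp2l1, to -0.04, with siTdg.

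**Figure D4:**
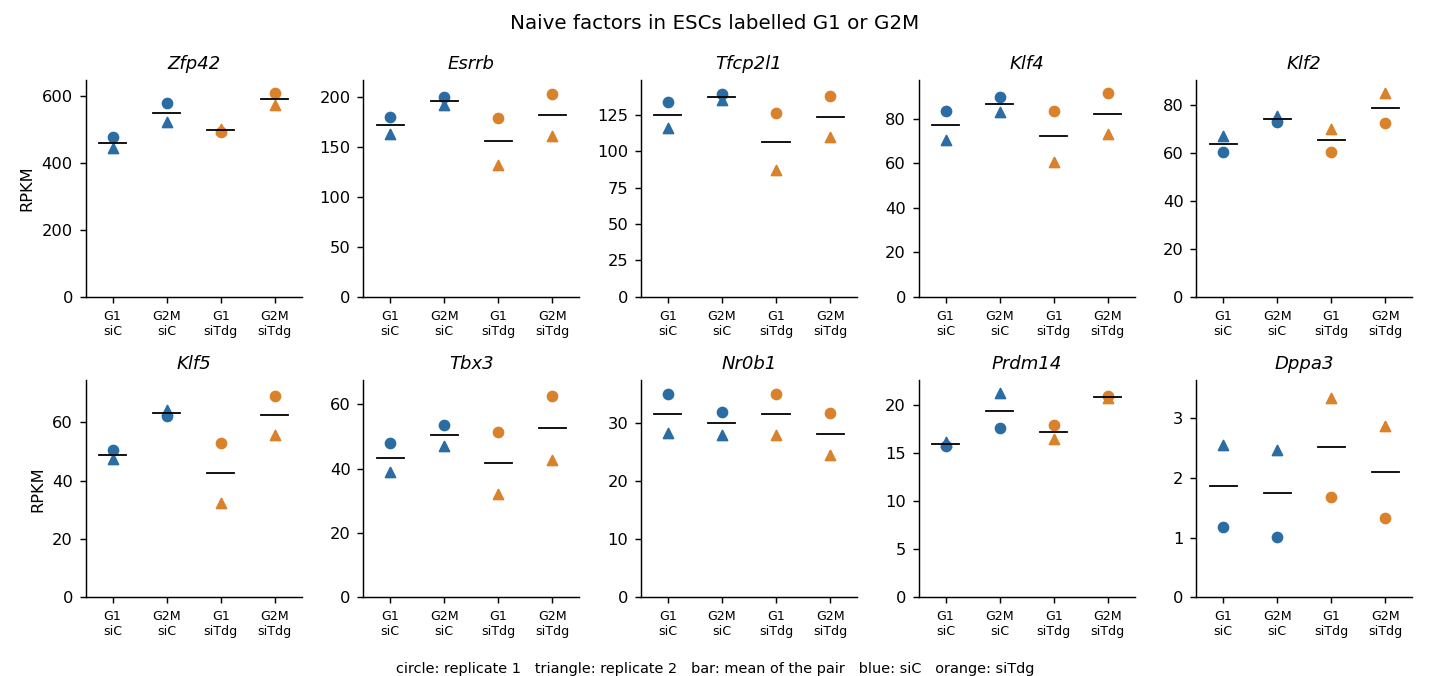
RPKM of the 10 genes in the 8 libraries labelled G1 or G2M, 1 panel per gene with its own y axis from 0; circles are replicate 1, triangles replicate 2, bars the mean of the pair, blue siC and orange siTdg. G2M lies above G1 without overlap for Klf2, Klf5, Prdm14 and Zfp42 with both siRNAs, and Nr0b1 and Dppa3 have G2M means below their G1 means.

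Counted by libraries, 6 members with siC (Esrrb, Klf2, Klf5, Prdm14, Tfcp2l1 and Zfp42) and 4 with siTdg (Klf2, Klf5, Prdm14 and Zfp42) had both G2M libraries above both G1 libraries, beside 23.3% and 19.7% of all genes. None had both below, beside 17.8% and 13.6% of all genes. The phase difference itself moved with gene length in siTdg cells, with a Spearman correlation of 0.383 over 12533 genes, and less so in siC cells, with 0.103 over 12382 genes. Its part in the members' changes was not tested. A further authors' deposited table compares SG2M with G1 at 0 h, from libraries not analysed here. There the authors' deposited table called 1 of 10 members, Zfp42 at 0.25 ± 0.07 (adjusted p = 0.00572), beside 8.87% of 12790 genes higher and 2.69% lower, and Klf5 was at 0.10 ± 0.09 (adjusted p = 0.542). There, in the authors' deposited table, 5 members had the opposite sign to G2M minus G1: Klf4 at -0.12 ± 0.08, Tfcp2l1 at -0.13 ± 0.07 and Prdm14 at -0.07 ± 0.10 were below 0, while Nr0b1 at 0.05 ± 0.11 and Dppa3 at 0.23 ± 0.26 were above it.

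**Figure D5:**
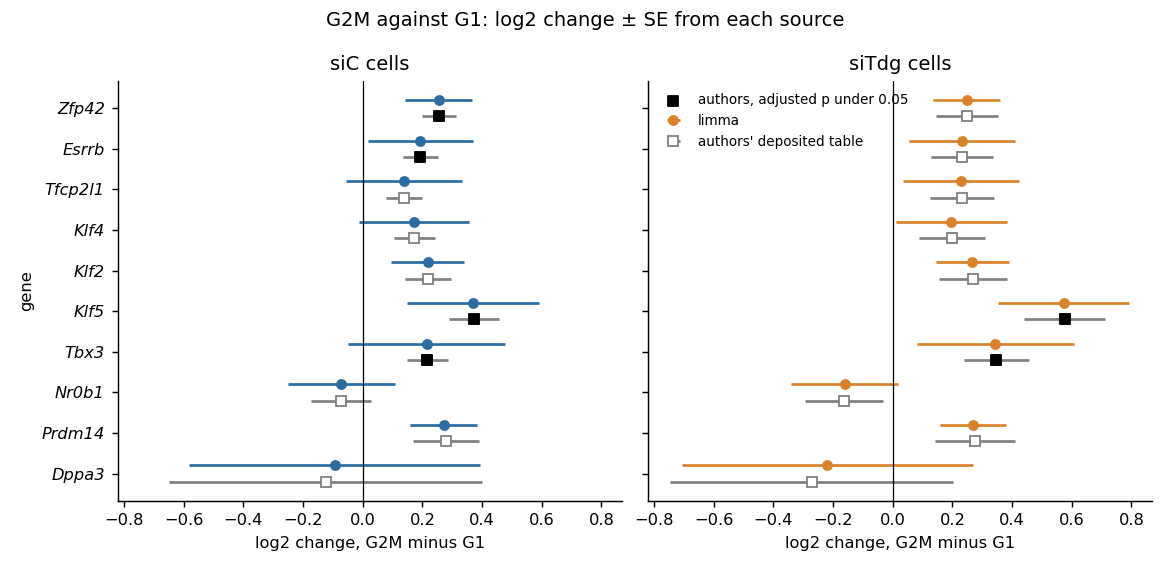
Log2 change from G1 to G2M (x axis, ± SE) for each gene in siC cells on the left and siTdg cells on the right; coloured circles are limma, squares the authors' deposited table, filled black where its adjusted p is under 0.05. The 2 sources give nearly the same changes, 8 of 10 above 0, and with siC the authors' error bars are shorter but for Prdm14 and Dppa3.

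Tdg knockdown did not detectably alter these phase differences or the levels within a phase. For the phase difference with siTdg minus that with siC limma called 0 of 10 members, 0 had an unadjusted p under 0.05, and 0% of genes were called in either direction; the median was 0.03 and the largest value 0.20 ± 0.31, for Klf5. Within G1 the 10 had a median siTdg change of -0.05 and within G2M of 0.0067, with 0 called and 0 at an unadjusted p under 0.05 in either, and limma-voom called 0. Above 0 lay 4 of the 10 within G1 and 5 within G2M, beside 50.2% and 54.6% of all genes. Dppa3 was among these members in both, at 0.35 ± 0.49 and 0.23 ± 0.49, opposite to its sign in unsorted ESCs. So was Klf2, at 0.03 ± 0.12 and 0.08 ± 0.12. Of all genes limma called 0% higher and 0.00802% lower in each phase, which is Tdg, at -2.67 ± 0.18 (adjusted p = 0.0233) in G1 and -2.54 ± 0.18 (adjusted p = 0.0331) in G2M. In G1, Prdm14 and Zfp42 were higher in both siTdg libraries, beside 11.6% of genes (14.1% were lower), and in G2M all 10 overlapped, where 14.5% of genes were higher and 10.5% lower without overlap. The 2 siRNAs sit in separately scaled tables, so a change that the scaling removes cannot be seen here. The standard errors were widest for Dppa3, at 0.49 in each phase, and changes of that size or larger could go uncalled.

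The signals that hold naive cells were read from lists of genes, described by counts. Of 12 genes of LIF and STAT3 signalling, limma called 0 in any comparison of ESCs, with medians of -0.04 for siTdg at 48 h and -0.01 at 96 h, and of 0.0048 and 0.081 for G2M minus G1 with siC and siTdg. The authors' deposited table called the same 3 between phases with each siRNA, where of all genes it called 6.23% and 4.14% higher and 2.24% and 0.878% lower: higher in G2M were Lifr, the LIF receptor, at 0.54 with siC and 0.59 with siTdg, and Klf3, a further Krüppel-like factor, at 0.46 and 0.66. Lower in G2M in the authors' deposited table was Junb, an AP-1 factor, at -0.85 and -0.57. Of 14 genes of the ERK response and its feedback limma called 0 in any comparison. The authors' deposited table called 3 of the 14 higher in G2M with each siRNA, beside the same 6.23% and 4.14% of all genes. These were the feedback inhibitors Spry4 at 0.88 with siC and 1.03 with siTdg, Spred2 at 0.42 and 0.69, and Spry2 at 0.26 and 0.38.

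Of 15 genes of GSK3 and Wnt signalling 12 were tested with siTdg at 96 h. All 12 lay below 0 in limma with a median of -0.16, where 51.3% of all genes lay above 0, and 0 were called. The part of gene length in these changes was not tested. The 3 farthest from 0 were Wnt targets, Sp5 at -0.39, T at -0.36 and Axin2 at -0.31, each with an adjusted p of 0.999997. At 48 h 6 of 12 were below 0. In the authors' deposited table Sp5, T and Axin2 were above 0 at 48 h, at 0.06 ± 0.18, 0.42 ± 0.35 and 0.05 ± 0.12. Between phases the authors' deposited table called 2 of the 10 with an adjusted p higher in G2M with each siRNA, beside 6.23% and 4.14% of all genes. These were Apc (0.37 with siC, 0.55 with siTdg) and Gsk3b (0.26 and 0.54), both of the complex that destroys beta-catenin. The medians of the list there were 0.055 and 0.0048, beside 0.034 and 0.027 over all genes. Of the 10 core pluripotency genes limma called 0 in any comparison, while the authors' deposited table called 3 of 10 higher in G2M with siC, beside 6.23% of all genes, and 5 with siTdg, beside 4.14%, Sall4 (0.31 and 0.45) and Sall1 (0.27 and 0.44) in both. Of 20 other naive-state genes limma called 0 in any comparison. For G2M minus G1 15 of them lay above 0 with siC and 10 with siTdg, beside 55.0% and 54.7% of all genes. The medians of the 20 were 0.091 and -0.0013. The authors' deposited table called 1 of the 20 higher in G2M with siC, beside 6.23% of all genes, and 0 with siTdg, beside 4.14%. The comparisons of a table share their libraries with those of the 10 naive factors.

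Among themselves the 10 genes did not vary as 1 block. Over the 16 ESC libraries, each centred on the mean of its table on the log2(RPKM + 0.5) scale, 34 of the 45 pairs had a Pearson correlation above 0, with a median of 0.39. Esrrb and Tfcp2l1 were most alike, at 0.98, with Tbx3 (0.97 with Esrrb) and Klf5 (0.93 with Esrrb) close to them. Zfp42 was their opposite, at -0.78 with Tfcp2l1 and -0.73 with Esrrb, and it lay below 0 with 8 of the other 9. Klf2, at -0.03 with Klf4, followed neither. The points share libraries, replicate numbers and gene length, and the 4 most alike are those with the replicate gap described above, so these values carry no test.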

How the data were processed

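Sample titles gave each library its group and replicate number, and 20 of the series' 47 samples, all RNA, were used. TopHat, Bowtie, DESeq2, DiffBind and build mm9 are named in the submitters' processing notes. Annotation, counting tool and strand setting: not given in the sources used here. Per the labels' protocols ribosomal RNA was depleted and the kit was stranded. The authors deposited RPKM, each table scaled separately, and tables of log2 fold change, standard error, p-value and adjusted p-value and mean normalised counts, a signal averaged over the libraries of each comparison. Their signs are turned here to siTdg minus siC and G2M minus G1. A further 4 columns of RPKM at 0 h were not used. In the authors' results for 96 h, 17 gene names had become dates.

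Whole reads were recovered from RPKM with the authors' deposited mean counts: 100% of positive values were whole within 0.01 reads, and libraries held 20818174 to 41433232 reads. No 2 libraries agreed within sampling noise (lowest chi-square per degree of freedom 4.63). limma 3.58.1 (R 4.3.3), with eBayes and a trend, was fitted to log2(RPKM + 0.5) for genes whose mean reached 0.5 RPKM, in 1 fit for unsorted ESCs, 1 for EBs and 1 for the phases, with no term for replicate number; tests are two-sided, adjusted by Benjamini-Hochberg over all genes, and called under 0.05. Fold changes on this scale are understated for low genes. Scripts were tested on simulated data. EBs and ESCs were compared on recovered reads divided by gene length and library total.

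The 10 genes and all lists were chosen with earlier results of these data known. All 10 are named in each comparison; of the other lists, genes that were called, or the 3 farthest from 0. Markers of trophoblast, neural, mesoderm and heart, germ cell, yolk sac and primed cells were summed as well. Alternatives were other pseudocounts (0.1 and 1), no filter, quantile normalization, limma-voom, a replicate block and leaving out libraries; 2 block fits were added after the data were seen. RefSeq promoters were matched by symbol.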

Additional observations from a re-analysis of the deposited data

How the results depend on the processing

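The count of members called by limma stayed at 0 in all 9 comparisons under other pseudocounts, no filter, quantile normalization, limma-voom and each library left out, and the 10 of 10 members at least 4-fold lower in EBs stayed under every alternative run. No member was called, so none had a called direction; the sign of the members' log2 changes turned in 130 of 664 values with 1 library left out and in 12 of 682 under the other alternatives. With no filter all genes called went from 0 to 4 at 96 h, 4 for 96 h against 48 h and 7 for the phase difference between siRNAs, and from 1 to 6 within G1 and 4 within G2M.

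Same-numbered libraries deviated together (correlations of 0.534 to 0.934 in unsorted ESCs, 0.951 in EBs, 0.557 to 0.72 in the phases), but the labels do not say that the numbers pair them; the authors' table names carry the word paired, which could refer to replicates or to groups. A replicate block left 0 members called, while all genes called became 614 and 985 for the phases with siC and siTdg (15 and 21 without it), 150 in EBs, 2 within G1 and 3 within G2M. With the block on voom values these were 678, 914 and, in EBs, 108. With a replicate block fitted within each table separately, 1 member was called at 48 h (Dppa3, adjusted p = 0.0102) and 4 for the phases with siTdg (Klf5, Tbx3, Klf2 and Prdm14), of 280 and 1686 genes; 6 of the 10 at 96 h, 7 for the phases with siC and 9 with siTdg had an unadjusted p under 0.05. All genes called were 1076 for the phases with siC, 15 at 96 h, 14 for 96 h against 48 h, 1 for the phase difference between siRNAs, 79 within G1 and 24 within G2M.

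With 1 library left out, the members' median ran from -0.45 to 0.015 at 96 h, -0.41 to 0.16 for 96 h against 48 h, -0.66 to 0.39 in EBs, 0.10 to 0.38 for the phases with siTdg, -0.16 to 0.16 for the phase difference between siRNAs, -0.25 to 0.11 within G1 and -0.21 to 0.082 within G2M. All genes called ran from 0 to 1 in EBs and within each phase, 0 to 17 for the phases with siC and 0 to 8 with siTdg, and genes 4-fold lower in EBs from 1407 to 2376 with siC and 1494 to 2331 with siTdg. A lone library left in a group is assumed to vary like the other groups. Depth limits Prdm14, Nr0b1, Esrrb and Dppa3 in EBs, where a library held 0 to 47 reads of each.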

Other observations

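Over the 16 ESC libraries, among 7459 genes at 5 RPKM or more, the mean of the 10 was followed most closely by Arel1 (Pearson correlation 0.972), Grik3 (0.97), Ror2 (0.968), Epb41l1 (0.967), Ubap2 (0.966) and Cep128 (0.964). Taken singly, Esrrb ran most like Phc1 (0.996), a Polycomb subunit, and Arid1a (0.994), a subunit of the BAF remodelling complex. Klf5 ran most like Spred2 (0.986), the ERK feedback inhibitor that the authors' deposited table also called higher in G2M, and Nr0b1 like Jam2 (0.884), 1 of the 20 other naive-state genes listed, Aen (0.876) and Trp53inp1 (0.874). Zfp42 ran with Rad51ap1 (0.981). Among 7467 genes compared for each factor, many long genes share the replicate gap, so these correlations are descriptions without a test.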
